A study of Mus musculus with 16 samples.

Results

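The 7 genes described here encode ATP-binding cassette (ABC) transporters that export drugs from cells: Abcb1a, Abcb1b, Abcg2, Abcc1, Abcc2, Abcc4 and Abcc5. They were chosen by name under a rule that uses no measured value, though earlier results of these data were known. All 7 were found among the 22609 gene entries of each count file. RNA was sequenced from cells sorted out of lumbar dorsal root ganglia (L3 to L5), where the sensory neurons of the hind limb have their cell bodies. The labels describe male mice aged 8 to 16 weeks, in which the tracer WGA-488 was injected into the paw on day 16 after the last drug or vehicle injection. Ganglia were taken on day 18, and tracer-positive cells were sorted by flow cytometry. The 16 libraries formed 4 groups of 4.

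In every group Ltbr, which encodes the lymphotoxin-beta receptor, was floxed. Mice of the CKO groups also carried a Cre recombinase driven by Nav1.8, the sodium channel of nociceptors encoded by Scn10a, so that deletion would be limited to neurons that use this promoter. Mice of the fl/fl groups had the floxed alleles without Cre. The first group was paclitaxel-treated (PTX) CKO and the second PTX fl/fl, with paclitaxel injected intraperitoneally at 6 mg per kg, 3 times, 2 days apart. The other 2 groups were vehicle CKO and vehicle fl/fl, whose treatment label is water. The treatment text attached to every library describes PTX, vehicle included, so the treatment label and the title were followed. The design text names 3 samples per group where the labels list 4. Nothing says that libraries came from separate animals, so the p-values below rest on the spread from library to library alone, and that spread could be technical.

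Gene counts ranged from 7906504 to 11668007 per library, and 12136 to 15418 genes had at least 1 count. Ltbr was looked at beside the genotype labels. It averaged 19.3 ± 9.64 CPM (counts per 1000000 gene counts, with scaled library sizes) in PTX CKO and 10.6 ± 4.18 in PTX fl/fl libraries (SD, n = 4 each), and 54.7 ± 31.2 in vehicle CKO and 47.2 ± 3.75 in vehicle fl/fl libraries (SD, n = 4 each). Mean Ltbr was thus not lower in the libraries labelled CKO. Deletion would be limited to neurons that use the Nav1.8 promoter, while the counts cover whole genes in libraries with other cell types. The level of Ltbr therefore cannot decide whether the labels are right, and every genotype comparison below follows the labels only. The PTX titles carry 24 and 25 September and the vehicle titles 1 and 2 October, so title date and treatment cannot be told apart. Sensory neuron markers were present in all 16 libraries and moved with treatment: the summed level of 19 markers was 11715 to 28285 CPM in PTX CKO and 14632 to 27631 in PTX fl/fl libraries, against 1802 to 4606 in vehicle CKO and 1546 to 8351 in vehicle fl/fl libraries. Other cell types were present too. The summed level of 13 neutrophil markers spanned 272 to 118836 CPM in PTX CKO, 5442 to 103002 in PTX fl/fl, 72180 to 231165 in vehicle CKO and 78711 to 210440 in vehicle fl/fl libraries. Within PTX these sums split by title date, with 272 to 10042 CPM on 24 September and 51747 to 118836 CPM on 25 September. The neuron sums of the PTX libraries split the other way, with 21479 to 28285 CPM on 24 September and 11715 to 15106 CPM on 25 September. In vehicle libraries the neutrophil sums also split by title date, in opposite directions in fl/fl and CKO. In fl/fl they were 201006 to 210440 CPM on 1 October and 78711 to 79754.5 CPM on 2 October. In CKO they were 72180 to 122868 CPM on 1 October and 221634 to 231165 CPM on 2 October.

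ABC transporters use ATP to move substrates across a membrane, and those of the drug efflux group lower the amount of many chemotherapy agents inside a cell. P-glycoprotein, for which taxanes such as paclitaxel are classic substrates, is encoded in rodents by the neighbouring genes Abcb1a and Abcb1b and is best known from the endothelium of the blood-brain and blood-nerve barriers. Abcg2 encodes the breast cancer resistance protein, and the Abcc genes encode multidrug resistance-associated proteins, which export organic anions, conjugates and nucleotides.

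Abcb1a (chr5:8660077-8748575, plus strand) and Abcb1b (chr5:8798147-8866315, plus strand) are close copies, with positions from the GENCODE M21 annotation of GRCm38. Their sequences are shown because they decide which reads can be assigned. Of all windows of 50 bases, the read length used, 15.5% of the longest coding Abcb1a transcript and 18% of that of Abcb1b occurred in a transcript of the other gene. For the other 5 genes, 0% of such windows were shared with another of the 7. The longest identical run was 338 bases, and 13 identical runs were at least 50 bases long. A stretch of 135 bases from the longest run, at positions 1671 to 1805 of transcript Abcb1a-201 and 1638 to 1772 of Abcb1b-201, follows with the 15 bases that encode the ABC signature motif of the first ATP-binding domain in capitals.
Abcb1a and Abcb1b: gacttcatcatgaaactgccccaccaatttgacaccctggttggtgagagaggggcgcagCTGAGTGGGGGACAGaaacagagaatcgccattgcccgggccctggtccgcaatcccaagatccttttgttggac
A read from this stretch cannot be told apart between the copies. The first 90 bases after that run in which at least 20 bases differ, compared without gaps, are given next. Differing bases are in capitals, and the positions are 2004 to 2093 of Abcb1a-201 and 1971 to 2060 of Abcb1b-201.
Abcb1a: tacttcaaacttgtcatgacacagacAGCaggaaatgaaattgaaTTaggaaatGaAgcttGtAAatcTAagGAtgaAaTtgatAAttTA
Abcb1b: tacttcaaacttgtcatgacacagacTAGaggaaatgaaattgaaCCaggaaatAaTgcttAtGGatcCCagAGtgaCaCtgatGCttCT
Such bases let a read be counted for 1 copy. The deposited files set aside alignments that were not unique, 39.5 to 44.2% of all alignments per library, so reads from the shared runs are likely to be missing from both genes' counts and both are reported as uncertain in level.

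Abcc5, Abcg2 and Abcc4 made up most of the efflux transporter RNA in these libraries, and P-glycoprotein transcripts were scarce. Levels of different genes were compared per kilobase (kb) of the longest coding GENCODE transcript, from 4306 bases for Abcb1b to 8027 bases for Abcc2. Over all 16 libraries Abcc5 averaged 14.8 CPM per kb, Abcg2 10.3, Abcc4 6.87, Abcc1 2.82, Abcb1a 0.797, Abcb1b 0.375 and Abcc2 0.0273 CPM per kb. Abcc5 was the highest of the 7 in 15 libraries and Abcg2 in 1, PTX fl/fl replicate 4. Abcc5 accounted for 31.3 to 51.7% of the 7 genes' summed CPM per kb in a library, and Abcb1a for 0 to 7.34%.

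Abcc5 had the highest mean in all 4 groups, and neighbours in the order often lay within each other's spread. In PTX CKO libraries Abcc5 averaged 14.8 ± 1.35 and Abcg2 12 ± 2.55 CPM per kb (SD, n = 4 each), and in PTX fl/fl libraries 19.0 ± 1.74 and 16.8 ± 6.24 (SD, n = 4 each). The SD intervals of these 2 genes overlapped in both PTX groups. In vehicle CKO libraries Abcc5 averaged 12.4 ± 3.42 and Abcg2 5.33 ± 2.40 CPM per kb (SD, n = 4 each), intervals that did not overlap, and in vehicle fl/fl libraries 13.1 ± 3.17 and 6.91 ± 3.75 (SD, n = 4 each), intervals that did. Abcc4 averaged 8.71 ± 2.81 CPM per kb in PTX CKO, 8.00 ± 2.26 in PTX fl/fl, 5.35 ± 2.36 in vehicle CKO and 5.40 ± 4.12 in vehicle fl/fl libraries (SD, n = 4 each). Its SD interval overlapped that of Abcg2 in every group except PTX fl/fl. Abcc1 came next in all 4 groups. The order of the scarce genes differed: in PTX CKO libraries Abcb1a averaged 0.0440 ± 0.0550 CPM per kb, below Abcb1b at 0.231 ± 0.238 and Abcc2 at 0.103 ± 0.206 (SD, n = 4 each), whereas Abcb1a had the highest mean of these 3 in the other groups.

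**Figure D1:**
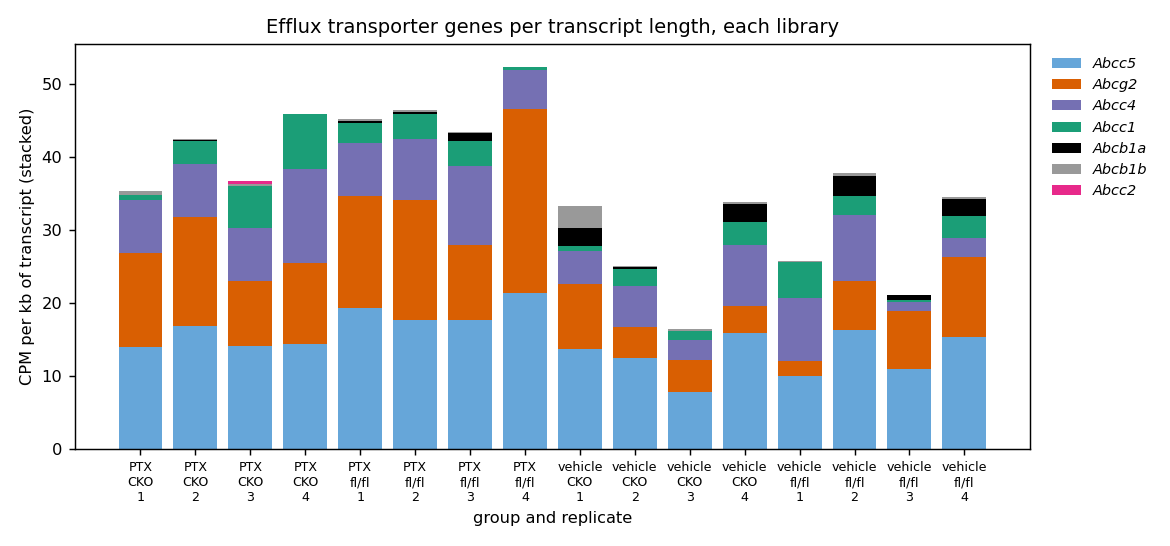
Stacked bars give the level of each of the 7 efflux transporter genes in CPM per kb of transcript (y axis) in each of the 16 libraries (x axis, group and replicate). Abcc5 is the largest part of every bar except that of PTX fl/fl replicate 4, where Abcg2 is larger, and the P-glycoprotein genes Abcb1a and Abcb1b are thin or missing.

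Whether paclitaxel changed these genes was asked in each genotype, and whether loss of Ltbr in nociceptors changed them in each treatment. No efflux transporter gene passed the threshold in any comparison with edgeR's quasi-likelihood test (Benjamini-Hochberg adjusted p of 0.05 over the 14200 genes with enough counts). Of the 7 genes 6 passed the filter on low counts, and Abcc2 did not. The count of called genes was 0 of 6 for PTX against vehicle in CKO, where 2.58% of all tested genes were called, and 0 of 6 in fl/fl, where 4.96% were called. It was 0 of 6 for CKO against fl/fl under PTX, where 0% of all tested genes were called by edgeR, 266 (1.87%) had an unadjusted p below 0.05 and DESeq2 called 10. It was 0 of 6 under vehicle, where 0.0211% were called, and 0 of 6 for the interaction of genotype and PTX, where 0.00704% were called. The median log2 fold change of the 6 genes for PTX against vehicle was 0.48 in CKO, against 0.02 over all tested genes, and 0.23 in fl/fl, against -0.01. In bulk RNA, fewer cells of a type and less RNA per cell cannot be told apart.

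**Figure D2:**
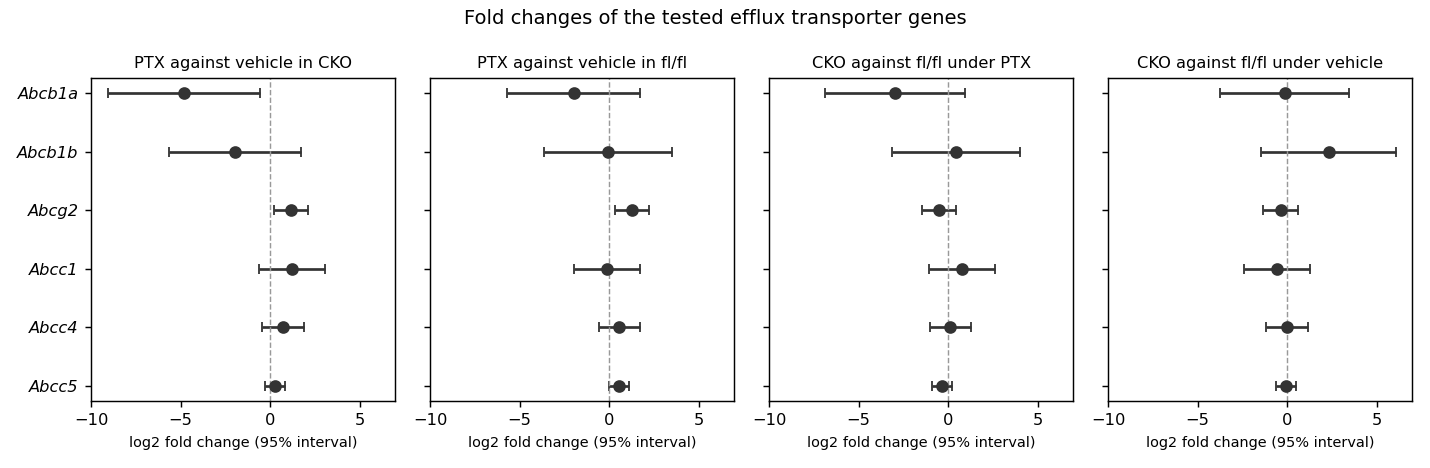
Each point is the log2 fold change (x axis) of a tested efflux transporter gene (y axis) in 1 of 4 comparisons, with its 95% interval from edgeR's quasi-likelihood fit. The intervals of Abcg2 lie above 0 for PTX against vehicle in both genotypes and that of Abcb1a lies below 0 in CKO, all before adjustment over 14200 genes, and the intervals of Abcb1a and Abcb1b are several log2 units wide.

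Abcb1a, the P-glycoprotein gene of brain capillary endothelium in mice, was patchy. It had 0, 0.569, 0.309 and 0 CPM in the 4 PTX CKO libraries (0, 6, 3 and 0 counts) and 12.2, 1.77, 0 and 12.3 CPM in the 4 vehicle CKO libraries (109, 16, 0 and 118 counts). In the fl/fl groups it had 1.25, 1.23, 4.90 and 0 CPM in PTX libraries (15, 14, 48 and 0 counts) and 0.437, 13.7, 3.21 and 11.8 CPM in vehicle libraries (4, 117, 39 and 142 counts). Every PTX library was under 5 CPM, while 4 of the 8 vehicle libraries were over 10 CPM and the other 4 overlapped the PTX range.

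For PTX against vehicle Abcb1a had a log2 fold change of -4.81 ± 2.00 (SE) in CKO, with an unadjusted p of 0.028 and an adjusted p of 0.192 by edgeR. With DESeq2 the same difference was -5.00, with an adjusted p of 0.032, and so passed the threshold. Over its 16 alternatives the adjusted p ran from 0.032 to 0.658 and the fold change from -5.82 to -4.32. In fl/fl the log2 fold change was -1.98 ± 1.76 (SE), with an edgeR adjusted p of 0.589, which ran from 0.441 to 0.927 over the alternatives. The difference between these 2 responses, the interaction, was -2.84 ± 2.44 (SE) on the log2 scale, with an edgeR adjusted p of 1. A count of 0 allows up to 3 counts, which is 0.247 to 0.384 CPM per library, for counting error only.

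Abcb1a was at 0 in 4 libraries, PTX CKO replicates 1 and 4, PTX fl/fl replicate 4 and vehicle CKO replicate 3. This was not rare for a gene of its level: 48.8% of the 695 genes whose mean was within 1.2 times of it, a window set after the values were seen, were at 0 in at least as many libraries. Its biological coefficient of variation was 1.53, equal to the trend for genes of its abundance. In the same 4 libraries Sox18, an endothelial transcription factor, was at 0 in all 4, and Flt1, the VEGF receptor 1 of endothelium, was at 0 in 3 and had 11 counts in PTX CKO replicate 1. These 2 genes are named because they varied most like Abcb1a over the same 16 libraries, so shared zeros follow in part from that choice. Sox18 was at 0 in 3 PTX CKO, 1 PTX fl/fl, 1 vehicle CKO and 1 vehicle fl/fl libraries, so also where Abcb1a had counts. Of the 22 endothelial markers listed, 7 to 9 were at 0 in the 4 libraries without Abcb1a and 0 to 5 in the other 12. The 4 included the 2 libraries with the fewest detected genes. PTX CKO replicate 4 had 12136 genes with a count, PTX fl/fl replicate 4 had 12347, vehicle CKO replicate 3 had 12776 and PTX CKO replicate 1 had 13487, against 12669 to 15418 in the other 12 libraries. Zeros were frequent there in other lists too: of 36 drug uptake and metabolism genes 21 to 25 were at 0 in the 4 libraries and 15 to 24 in the other 12. The part of this lower detection in the zeros of Abcb1a was not tested.

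**Figure D3:**
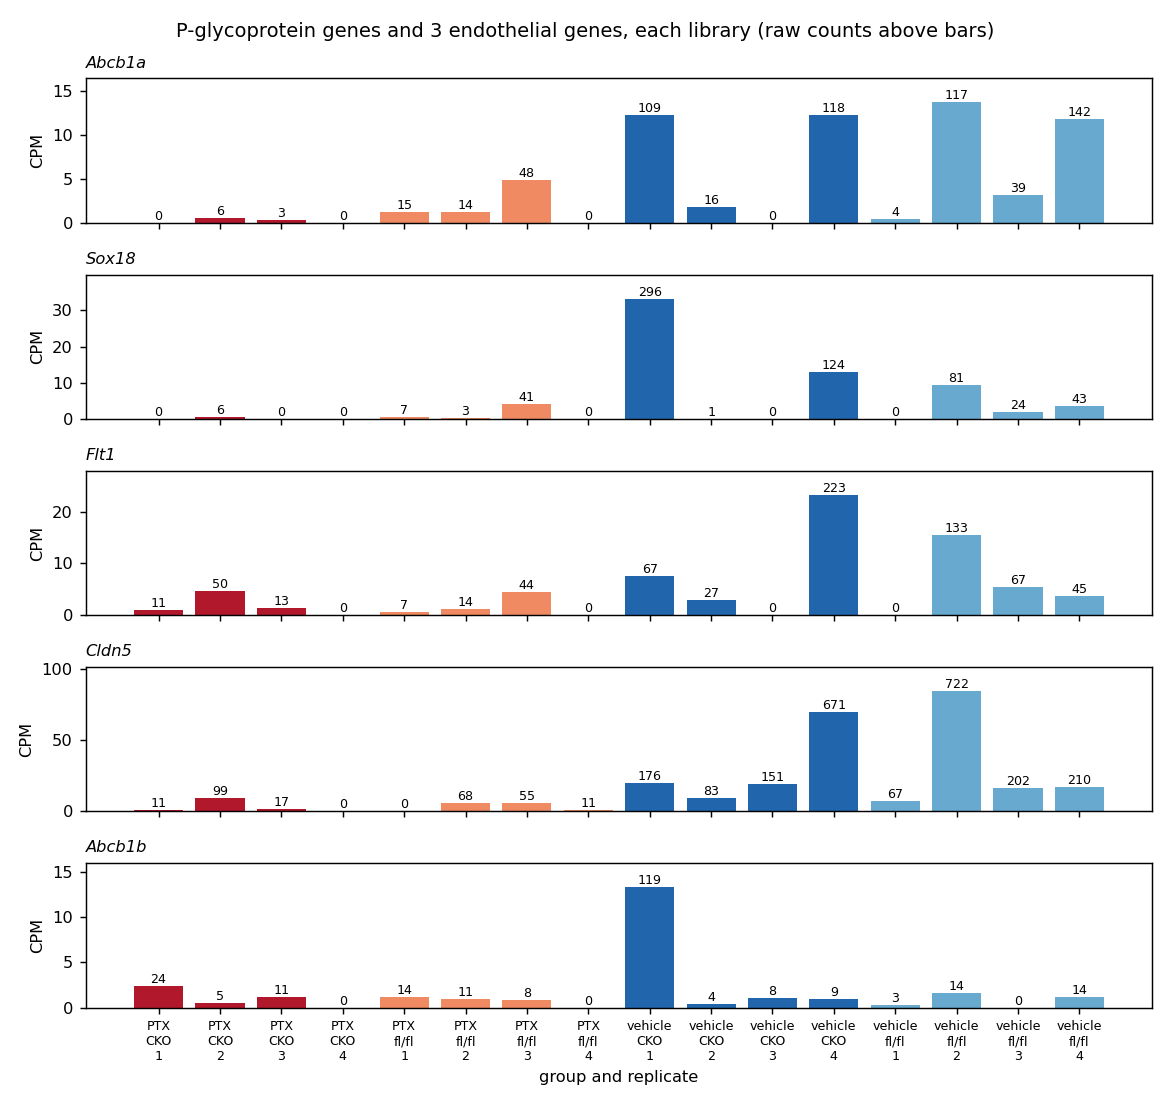
Bars give the level in CPM (y axis) of Abcb1a, the endothelial genes Sox18, Flt1 and Cldn5, and Abcb1b in each of the 16 libraries (x axis, group and replicate), with the raw count above each bar. The 4 libraries with no Abcb1a count also have no Sox18 count, and Abcb1a is highest in vehicle libraries that also have Sox18 and Flt1. Sox18 and Flt1 are the genes that varied most like Abcb1a over these same libraries, so this likeness follows in part from that choice.

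Among all 14200 tested genes, the 3 whose variation within groups was most like that of Abcb1a were Sox18, Flt1 and Elac1. Likeness was the Pearson r of log2(CPM + 1), taken as the deviation from the group mean, over 16 libraries. For Sox18 r was 0.92 (Spearman's rho 0.93, and r 0.89 without the 2 libraries farthest from the median of Abcb1a). For Flt1 r was 0.89 (rho 0.86, and 0.78 without those 2 libraries). For Elac1 r was 0.85 (rho 0.78, and 0.75 without them). Of the 22 endothelial markers 7 (31.8%) had an r above 0.5 with Abcb1a, against 6.96% of all tested genes, and the median r was 0.33 against 0.05. This was not particular to Abcb1a. With Abcc5 the median r was 0.36, and 5 markers (22.7%) were above 0.5, against 5.22% of all tested genes. The median r was 0.28 with Abcc4 (3 markers above 0.5), 0.16 with Abcc1 (0), 0.11 with Abcg2 (1) and 0.11 with Abcb1b (4). The values that follow are again those of Abcb1a. None of the 19 sensory neuron markers and none of the 10 tested fibroblast markers had an r above 0.5, with median r values of 0.18 and 0.29, so the fibroblast median was close to the endothelial one. Of the 13 macrophage markers 1 did, with a median r of 0.19. These values are descriptions, since the 16 points share their libraries, depth and sort.

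The endothelial markers were lower after PTX on average without passing the test. Their summed level was 186 to 538 CPM in PTX CKO and 152 to 429 in PTX fl/fl libraries, against 312 to 605 in vehicle CKO and 350 to 945 in vehicle fl/fl libraries. The gene with the largest part in these sums was Slc2a1. It averaged 176 ± 108 CPM in PTX CKO and 179 ± 26.6 CPM in vehicle CKO libraries (SD, n = 4 each). In fl/fl it averaged 138 ± 66.3 CPM in PTX and 214 ± 148 CPM in vehicle libraries (SD, n = 4 each). Of the 22, 0 were called in either PTX comparison by edgeR, where 2.58% of all tested genes were called in CKO and 4.96% in fl/fl. Their median log2 fold change was -1.69 in CKO, against 0.02 over all tested genes, and -1.64 in fl/fl, against -0.01. Cldn5, the claudin of endothelial tight junctions, averaged 3.06 ± 4.29 CPM in PTX CKO and 29.5 ± 27.4 CPM in vehicle CKO libraries (SD, n = 4 each), a log2 fold change of -3.26 ± 1.40 (SE) with an edgeR adjusted p of 0.207. Pecam1, the adhesion molecule of endothelial junctions, had no lower mean in PTX CKO. It averaged 4.70 ± 8.76 CPM in PTX CKO and 4.56 ± 9.12 CPM in vehicle CKO libraries (SD, n = 4 each). Pecam1 was at 0 in PTX CKO replicate 1, in vehicle CKO replicates 1 to 3 and in vehicle fl/fl replicate 3. Cdh5, the cadherin of endothelium, averaged 1.54 ± 2.87 and 7.44 ± 13.8 CPM in these CKO groups (SD, n = 4 each). Cdh5 was at 0 in PTX CKO replicate 2, PTX fl/fl replicate 4 and vehicle CKO replicate 3. For PTX against vehicle 2 of the 22 markers had a positive log2 fold change in CKO and 1 in fl/fl. The part of endothelial RNA in the Abcb1a difference was not tested.

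Abcb1b, the second P-glycoprotein gene, was at or under 2.36 CPM in 15 libraries and stood out in 1. It had 2.36, 0.475, 1.13 and 0 CPM in PTX CKO libraries and 13.4, 0.443, 1.02 and 0.938 CPM in vehicle CKO libraries. In the fl/fl groups it had 1.16, 0.967, 0.817 and 0 CPM in PTX libraries and 0.328, 1.64, 0 and 1.16 CPM in vehicle libraries. Vehicle CKO replicate 1, with 119 counts, was the single high library, and all groups overlapped. The log2 fold change for PTX against vehicle was -1.97 ± 1.76 (SE) in CKO, with an edgeR adjusted p of 0.574, and -0.08 ± 1.70 (SE) in fl/fl, with an edgeR adjusted p of 0.988. Without vehicle CKO replicate 1 the value in CKO turned to 0.31. The genes with a pattern most like it were Adck1 (r 0.96, rho 0.95), Bicc1 (r 0.93, rho 0.86) and Slc22a21 (r 0.90, rho 0.86), over 16 libraries. Without the 2 libraries farthest from the median r was 0.91, 0.87 and 0.79.

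Within a library the ratio of the P-glycoprotein copies does not depend on scaling. Among libraries with at least 10 counts of both together, Abcb1a made up 0% (95% exact binomial interval 0 to 14.2), 54.5% (23.4 to 83.3) and 21.4% (4.66 to 50.8) in PTX CKO replicates 1 to 3, and 47.8% (41.2 to 54.5), 80.0% (56.3 to 94.3) and 92.9% (87.0 to 96.7) in vehicle CKO replicates 1, 2 and 4. In the fl/fl groups it made up 51.7% (32.5 to 70.6), 56.0% (34.9 to 75.6) and 85.7% (73.8 to 93.6) in PTX replicates 1 to 3, and 89.3% (82.7 to 94.0), 100% (91.0 to 100) and 91.0% (85.4 to 95) in vehicle replicates 2 to 4. Among these libraries the groups overlapped in CKO and did not overlap in fl/fl. Vehicle fl/fl replicate 1, left out with 7 counts of both, had a share of 57.1% (18.4 to 90.1), within the PTX fl/fl range. Vehicle CKO replicate 3, left out with 8 counts, had a share of 0% (0 to 36.9). Both left-out shares lay below the vehicle means that follow, so the differences depend on the minimum count.

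The mean share of Abcb1a was 25.3 ± 27.5% in PTX CKO and 73.6 ± 23.2% in vehicle CKO libraries (SD, n = 3 each), a difference of -48.2 percentage points with a two-sided exact permutation p of 0.2. It was 64.5 ± 18.5% in PTX fl/fl and 93.4 ± 5.74% in vehicle fl/fl libraries (SD, n = 3 each), a difference of -29.0 percentage points with an exact permutation p of 0.1. With 3 libraries against 3 the smallest p this test allows is 0.1, so neither difference could pass. Reads from the shared runs are likely to be missing from these shares, which could not be checked from the counts.

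Abcg2 had higher means after PTX in both genotypes. The encoded half-transporter works as a dimer and exports agents such as mitoxantrone and topotecan as well as urate. It had 74.1, 85.5, 51.5 and 63.2 CPM in PTX CKO libraries and 50.9, 24.3, 25.2 and 21.5 CPM in vehicle CKO libraries. All 4 PTX libraries were above all 4 vehicle libraries, as was so for 8.91% of all tested genes in this comparison, and the gap between the lowest PTX and the highest vehicle library was narrow. In the fl/fl groups it had 87.8, 94.2, 58.4 and 144 CPM in PTX libraries and 11.4, 37.8, 46.0 and 62.7 CPM in vehicle libraries. Here the groups overlapped, because PTX replicate 3 was below vehicle replicate 4.

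The log2 fold change of Abcg2 for PTX against vehicle was 1.17 ± 0.46 (SE) in CKO, a 2.25-fold higher mean, with an unadjusted p of 0.02 and an adjusted p of 0.167 by edgeR. In fl/fl it was 1.28 ± 0.46 (SE), a 2.43-fold higher mean, with an unadjusted p of 0.0119 and an adjusted p of 0.123 by edgeR. The direction was the same in all 17 alternatives of each, which ran from 0.90 to 1.54 in CKO (adjusted p 0.0916 to 0.702) and from 0.68 to 1.60 in fl/fl (adjusted p 0.0684 to 0.551). Unadjusted p-values below 0.05 were common, with 19.7% of tested genes in CKO and 19.5% in fl/fl. The interaction was -0.11 ± 0.64 (SE), with a 95% interval from -1.46 to 1.23 and an edgeR adjusted p of 1. Between genotypes the log2 fold change of libraries labelled CKO against fl/fl was -0.49 ± 0.45 (SE) under PTX and -0.37 ± 0.45 (SE) under vehicle, both with an edgeR adjusted p of 1.

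The Abcg2 difference ran beside the higher level of neuron markers after PTX. Of the 19 sensory neuron markers, 9 rose in CKO and 14 in fl/fl for PTX against vehicle by edgeR, where 2.22% and 3.2% of all tested genes rose, and 0 fell. Avil, the actin regulator advillin of sensory neurons, averaged 619 ± 304 CPM in PTX CKO and 108 ± 49.2 CPM in vehicle CKO libraries (SD, n = 4 each), and Prph, the intermediate filament peripherin, 2310 ± 1031 and 401 ± 231 CPM (SD, n = 4 each). Scn10a averaged 635 ± 376 CPM in PTX CKO and 85.4 ± 39.7 CPM in vehicle CKO libraries (SD, n = 4 each), and 818 ± 495 CPM in PTX fl/fl and 90.8 ± 74.8 CPM in vehicle fl/fl libraries (SD, n = 4 each). None of Avil, Prph and Scn10a was at 0 in any library. Within groups 3 of the 19 markers (15.8%) had an r above 0.5 with Abcg2, against 7.15% of all tested genes, with a median r of 0.35. This was not particular to neuron markers. With 14 satellite glia markers the median r was 0.29, with 0 above 0.5. With 13 neutrophil markers it was -0.35, from -0.49 to -0.30, against 0.03 over all tested genes. The part of the neuron share, or of other cell types, in the Abcg2 difference was not tested. The genes most like Abcg2 within groups were Ttbk2 (r 0.91, rho 0.82), Tigd2 (r 0.89, rho 0.80) and Tecpr1 (r 0.87, rho 0.86), and 0.77, 0.80 and 0.77 without the 2 farthest libraries.

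Abcc5, which exports cyclic nucleotides and folates, was the most even of the 7. Its biological coefficient of variation was 0.330, against a trend of 0.536 for genes of its abundance. It had 80.6, 97.5, 81.6 and 83.6 CPM in PTX CKO libraries and 79.5, 72.3, 45.0 and 92.0 CPM in vehicle CKO libraries, which overlapped. It had 112, 103, 103 and 124 CPM in PTX fl/fl libraries and 57.9, 95, 63.2 and 89.0 CPM in vehicle fl/fl libraries, which did not. In fl/fl 11% of all tested genes were higher without overlap. The log2 fold change for PTX against vehicle was 0.25 ± 0.27 (SE) in CKO, with an edgeR adjusted p of 0.651, and 0.53 ± 0.27 (SE) in fl/fl, with an edgeR adjusted p of 0.293. Over 17 alternatives the fl/fl value ran from 0.39 to 0.66 and its adjusted p from 0.237 to 0.713.

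Abcc5 was also lower in every PTX CKO library than in every PTX fl/fl library. Of all tested genes 1.37% were lower without overlap in this comparison. The log2 fold change of libraries labelled CKO against fl/fl under PTX was -0.36 ± 0.27 (SE), with a 95% interval from -0.93 to 0.20, an unadjusted p of 0.195 and an adjusted p of 1 by edgeR. Within the 24 September libraries the means were 89.0 CPM in CKO and 107 CPM in fl/fl, and within those of 25 September 82.6 and 113 CPM (n = 2 each). Under vehicle the log2 fold change was -0.08 ± 0.27 (SE), and the interaction was -0.28 ± 0.38 (SE), with an edgeR adjusted p of 1. The genes most like Abcc5 within groups were Klhl22 (r 0.88, rho 0.90), Zscan22 (r 0.87, rho 0.76) and Ptpn11 (r 0.87, rho 0.78), and 0.80, 0.81 and 0.69 without the 2 farthest libraries.

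**Figure D4:**
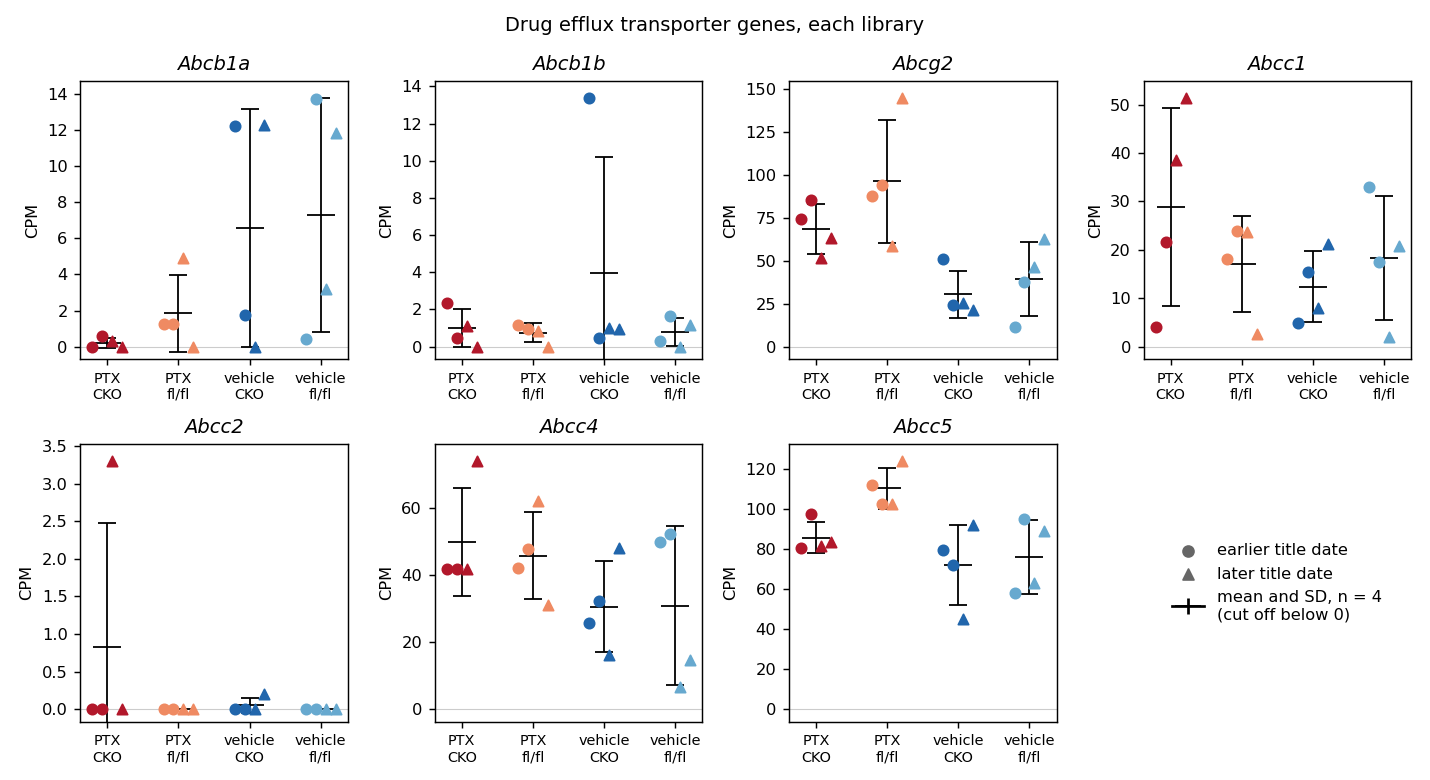
Points give the level of each efflux transporter gene in CPM (y axis) in each library, by group (x axis) and title date (circles earlier, triangles later), with the group mean and SD (n = 4) as a line and bars cut off below 0. Within CKO every PTX library lies above every vehicle library for Abcg2, within fl/fl PTX replicate 3 lies below vehicle replicate 4, and Abcb1a above 10 CPM occurs only among vehicle libraries.

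Abcc4 exports cyclic AMP, prostaglandins and nucleoside drugs. It had 41.8, 41.9, 41.7 and 73.9 CPM in PTX CKO libraries and 25.7, 32.3, 16.1 and 48.1 CPM in vehicle CKO libraries. It had 42.1, 47.6, 62.1 and 31.0 CPM in PTX fl/fl libraries and 49.9, 52.2, 6.67 and 14.7 CPM in vehicle fl/fl libraries. Both pairs overlapped. In vehicle fl/fl the 1 October libraries were near 50 CPM and the 2 October libraries under 15 CPM, a larger gap than any between group means. The log2 fold change for PTX against vehicle was 0.70 ± 0.55 (SE) in CKO, with an edgeR adjusted p of 0.513, and 0.57 ± 0.55 (SE) in fl/fl, with an edgeR adjusted p of 0.625. Without the 1 October vehicle libraries the fl/fl value was 1.95, with an edgeR adjusted p of 0.176. Among the genes most like Abcc4 within groups were Sh3glb1 (r 0.89, rho 0.88) and Map3k15 (r 0.85, rho 0.87), and r was 0.78 and 0.88 without the 2 farthest libraries.

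Abcc1, the exporter of glutathione conjugates and of leukotriene C4, varied widely within each group. It had 4.04, 21.5, 38.6 and 51.3 CPM in PTX CKO libraries and 4.83, 15.5, 8.05 and 21.3 CPM in vehicle CKO libraries. It had 18.1, 23.8, 23.8 and 2.64 CPM in PTX fl/fl libraries and 33.0, 17.6, 1.89 and 20.9 CPM in vehicle fl/fl libraries. All 4 groups overlapped, and each held at least 1 library under 5 CPM. The log2 fold change for PTX against vehicle was 1.22 ± 0.89 (SE) in CKO, with an edgeR adjusted p of 0.479, and -0.10 ± 0.87 (SE) in fl/fl, with an edgeR adjusted p of 0.971. The genes most like Abcc1 within groups were Atad2 (r 0.95, rho 0.92), Prkch (r 0.88, rho 0.66) and Peo1 (r 0.88, rho 0.60), and 0.91, 0.76 and 0.82 without the 2 farthest libraries. The median r of Abcc1 with 13 neutrophil markers was 0.46, from 0.40 to 0.58, against 0.01 over all tested genes. With 13 macrophage markers it was 0.36, and with 14 satellite glia markers -0.47.

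Abcc2, the exporter of bilirubin conjugates and of taxanes at the bile canaliculus, was nearly absent from the counts. It had 32 counts (3.30 CPM) in PTX CKO replicate 3, 2 counts (0.208 CPM) in vehicle CKO replicate 4 and 0 in the other 14 libraries. In both fl/fl groups all libraries were at 0, which allows up to 3 counts over the group, or 0.0697 CPM in PTX fl/fl and 0.0717 CPM in vehicle fl/fl. With a count in 1 or 2 of the 8 libraries compared, a permutation test cannot pass the threshold whatever the values, and none is given.

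Between genotypes the remaining values were small or wide. For libraries labelled CKO against fl/fl the log2 fold change of Abcb1a was -2.99 ± 1.85 (SE) under PTX and -0.15 ± 1.70 (SE) under vehicle, that of Abcb1b 0.42 ± 1.70 (SE) and 2.32 ± 1.78 (SE), that of Abcc1 0.76 ± 0.88 (SE) and -0.56 ± 0.88 (SE), and that of Abcc4 0.12 ± 0.55 (SE) and -0.01 ± 0.55 (SE). All had an edgeR adjusted p of 1, and of the 6 tested genes Abcc5 under PTX was the one whose groups did not overlap. Under vehicle 0 of 6 had groups that did not overlap, where 2.49% of all tested genes did. A 95% interval of the Abcg2 difference from -1.44 to 0.46 under PTX and from -1.32 to 0.58 under vehicle still holds differences of more than 2-fold downward.

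Among the members themselves, 15 pairs of the 6 tested genes were compared by their variation within groups over 16 libraries. Abcb1a and Abcc5 had the highest r, 0.76 (rho 0.66, and 0.52 without the 2 farthest libraries), followed by Abcc1 and Abcc4 at 0.68 (rho 0.63, and 0.57). The copies Abcb1a and Abcb1b had an r of 0.52 (rho 0.52, and 0.54). Abcg2 ran against Abcc4 at -0.58 (rho -0.52, and -0.41) and against Abcc1 at -0.56 (rho -0.67, and -0.70). These are descriptions without a test.

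Other genes of the pathway came from lists that were not chosen for how they moved, though earlier results of these data were known. Of 45 other ABC transporter genes 33 were tested. For PTX against vehicle 0 rose and 1 fell in CKO, where 2.22% of all tested genes rose and 0.359% fell. In fl/fl 2 rose and 4 fell, where 3.2% of all tested genes rose and 1.76% fell. The median log2 fold changes were 0.14 in CKO and -0.41 in fl/fl. Abca1, the cholesterol exporter that lipidates apolipoprotein A-I, fell in both. It had 53.4, 58.3, 60.1 and 56.6 CPM in PTX CKO libraries and 219, 140, 167 and 60.2 CPM in vehicle CKO libraries, a log2 fold change of -1.36 ± 0.33 (SE) with an edgeR adjusted p of 0.0407. It averaged 52.0 ± 11.2 CPM in PTX fl/fl and 137 ± 32.8 CPM in vehicle fl/fl libraries (SD, n = 4 each), a log2 fold change of -1.40 ± 0.34 (SE) with an edgeR adjusted p of 0.0246. In both genotypes the groups did not overlap, which for a lower level in PTX libraries held for 4.54% of all tested genes in CKO and 7.8% in fl/fl. The direction was the same in all 17 alternatives of each. The call held in 6 of them in CKO (adjusted p 0.00175 to 0.508) and was lost without any 1 of the 8 libraries compared except vehicle CKO replicate 4. In fl/fl it held in 10 of 17 (adjusted p 0.000998 to 0.43) and was lost without PTX fl/fl replicate 1 or 2 or vehicle fl/fl replicate 3 or 4.

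In fl/fl the other called ABC genes named by the rule were Abca9, Abce1 and Abca7. Abca9, a lipid transporter of the ABCA6-like cluster, fell to 2.01 ± 1.70 CPM in PTX fl/fl, against 56.3 ± 31.8 CPM in vehicle fl/fl libraries (SD, n = 4 each), a log2 fold change of -4.79 ± 0.95 (SE) with an edgeR adjusted p of 0.0112. Abce1, a ribosome recycling factor that transports nothing, averaged 126 ± 33.5 CPM in PTX fl/fl and 31.8 ± 21.4 CPM in vehicle fl/fl libraries (SD, n = 4 each), a log2 fold change of 1.99 ± 0.44 (SE) with an edgeR adjusted p of 0.017. Abca7, a lipid exporter related to Abca1, averaged 124 ± 8.12 CPM in PTX fl/fl and 57.9 ± 13.3 CPM in vehicle fl/fl libraries (SD, n = 4 each), a log2 fold change of 1.10 ± 0.28 (SE) with an edgeR adjusted p of 0.0342. In CKO the log2 fold changes were -3.37 for Abca9, 0.75 for Abce1 and 0.14 for Abca7, none past the threshold. The fl/fl call held in 16 of 17 alternatives for Abca9 (adjusted p 8.13e-07 to 0.146), lost only without the 24 September PTX libraries, in 11 of 17 for Abce1 (adjusted p 0.000797 to 0.304) and in 6 of 17 for Abca7 (adjusted p 0.00769 to 0.369). Abce1 lost it without PTX fl/fl replicate 1 or 2 or vehicle fl/fl replicate 1, and Abca7 without any 1 of the 8 libraries except PTX fl/fl replicate 4.

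Markers of glia and fibroblasts were lower after PTX beside the ABC genes that fell. Of all tested genes 0.359% fell in CKO and 1.76% in fl/fl for PTX against vehicle by edgeR, beside which the counts that follow stand. Of 12 myelinating Schwann cell markers 6 fell in CKO and 8 in fl/fl by edgeR, and 0 rose. Their summed level was 1908 to 2786 CPM in PTX CKO and 1630 to 2955 in PTX fl/fl libraries, against 6646 to 8749 in vehicle CKO and 5926 to 8737 in vehicle fl/fl libraries. Of 14 satellite glia markers 1 fell in CKO and 7 in fl/fl, with sums of 10197 to 26416 CPM in PTX CKO and 4960 to 15914 in PTX fl/fl, against 12092 to 33582 in vehicle CKO and 26745 to 37580 in vehicle fl/fl libraries. Apoe had the largest part in these sums, with means of 11873 CPM in PTX CKO, 6350 in PTX fl/fl, 16648 in vehicle CKO and 22560 in vehicle fl/fl libraries. Of 10 tested fibroblast markers 3 fell in CKO and 4 in fl/fl. The sum of the 11 listed was 117 to 541 CPM in PTX CKO and 173 to 448 in PTX fl/fl, against 742 to 2175 in vehicle CKO and 1330 to 3056 in vehicle fl/fl libraries. Of 13 macrophage markers 0 fell in CKO and 2 in fl/fl. No satellite glia marker was at 0 in any library, while up to 2 Schwann cell markers and 1 to 4 fibroblast markers were. The part of these cell types in the lower levels of Abca1, Abca9, Ybx1 and Foxo1 was not tested.

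Of 36 genes for drug uptake and metabolism 20 were tested and 0 were called in either PTX comparison by edgeR, where 2.58% of all tested genes were called in CKO and 4.96% in fl/fl. Their median log2 fold changes for PTX against vehicle were -0.40 in CKO and -0.67 in fl/fl. The most abundant were Por, the electron donor of cytochromes P450, and Gstp1, a glutathione transferase. Por averaged 105 ± 32.3 CPM in PTX CKO and 200.2 ± 80.6 CPM in vehicle CKO libraries (SD, n = 4 each), with an edgeR adjusted p of 0.176. Gstp1 averaged 172 ± 22.2 CPM in PTX fl/fl and 80.4 ± 29.6 CPM in vehicle fl/fl libraries (SD, n = 4 each), with an edgeR adjusted p of 0.0579.

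Of 21 regulators of efflux genes, such as nuclear receptors that sense foreign compounds, 19 were tested. For PTX against vehicle 0 rose and 1 fell in CKO and 0 rose and 2 fell in fl/fl, where 0.359% of all tested genes fell in CKO and 1.76% in fl/fl. The median log2 fold changes were -0.66 in CKO and -1.13 in fl/fl. Ybx1, the Y-box protein reported to bind the human ABCB1 promoter, fell in both. It had 23.0, 21.6, 27.9 and 47.7 CPM in PTX CKO libraries and 93.8, 103, 72.6 and 78.1 CPM in vehicle CKO libraries, a log2 fold change of -1.53 ± 0.34 (SE) with an edgeR adjusted p of 0.0264. It had 23.7, 17.8, 30.7 and 38.7 CPM in PTX fl/fl libraries and 76.3, 118, 120 and 110 CPM in vehicle fl/fl libraries, a log2 fold change of -1.94 ± 0.34 (SE) with an edgeR adjusted p of 0.00736. All PTX libraries were below all vehicle libraries in both genotypes, as was so for 4.54% of all tested genes in CKO and 7.8% in fl/fl. The call held in 15 of 17 alternatives in fl/fl (adjusted p 1.7e-06 to 0.194), lost without either the earlier PTX or the earlier vehicle date. In CKO it held in 9 of 17 (adjusted p 0.000277 to 0.461) and was lost without PTX CKO replicate 1 or 2 or vehicle CKO replicate 1, 2 or 3. Foxo1, a forkhead factor of the insulin pathway, fell in fl/fl, with 20.0 ± 10.6 CPM in PTX and 72.9 ± 4.17 CPM in vehicle libraries (SD, n = 4 each), a log2 fold change of -1.86 ± 0.45 (SE) and an edgeR adjusted p of 0.0247. The call held in 9 of 17 alternatives (adjusted p 0.00106 to 0.318) and was lost without PTX fl/fl replicate 1 or 2 or vehicle fl/fl replicate 1, 2 or 3. In CKO its log2 fold change was -0.95, with an edgeR adjusted p of 0.238.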

How the data were processed

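The deposited files hold raw counts of reads per gene for each of 16 libraries, with no normalization by the authors. The submitters' processing notes name bcl2fastq, TopHat2, HTSeq and the build mm9, with versions not given in the sources used here. The kit marks strand per the labels' protocols, and the strand setting of the counting is not given in the sources used here. The 5 summary lines of each file were left out of library sizes. They held the alignments that were not unique (39.5 to 44.2%), on no feature (13.7 to 25.4%) or ambiguous (0.262 to 0.423%), and 32.9 to 43.5% were assigned to genes. Intervals and floors cover counting error only.

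Counts were filtered with filterByExpr by group, which left 14200 genes, and given TMM scaling factors. The model was edgeR 4.0.16's robust quasi-likelihood fit in R 4.3.3, with 4 group means and all 16 libraries together. P-values are two-sided and adjusted by Benjamini and Hochberg's method across the genes tested, with a threshold of 0.05. CPM values use TMM-scaled library sizes. The genes and lists were chosen with earlier results of these data known. Beside the 7 genes and the markers, the text names for each of them the 3 most alike genes (1 of those of Abcc4 is not reported here), and for each list up to 4 called genes with the smallest adjusted p, or the 2 most abundant where none was called.

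The alternatives were RLE scaling, leaving the filter out, raising it to 5 CPM in 4 libraries, a replicate block, a title date term within treatment, the compared groups alone, each treatment without its earlier title date, DESeq2 1.42.0, a pseudocount of 0.1, a minimum of 30 counts for shares, and leaving out each library in turn. Same-numbered libraries were checked for pairing by the correlation of their deviations from group means. Under PTX the CKO and fl/fl libraries of one number had correlations of 0.429, 0.481, 0.468 and 0.233. Numbers 1 and 2 carry the earlier title date in both groups, and libraries of different numbers were not compared. These correlations therefore cannot tell pairing by number from a shared title date. In the other comparisons they ran from -0.203 to 0.111. No 2 libraries of a group were identical. The analysis was tested on simulated counts with known changes. Of 50 genes changed 2-fold, 4% were recovered for PTX against vehicle in fl/fl and 2% in CKO. For CKO against fl/fl the share was 0% under PTX and 0% under vehicle. Of 50 genes changed 4-fold, 16% were recovered for PTX against vehicle in fl/fl and 14% in CKO. At 16-fold these shares were 62% and 68%. A gene without a call can therefore still differ by 2-fold or 4-fold. Transcripts and positions came from GENCODE M21 (GRCm38), with no coordinate taken from mm9.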

Additional observations from a re-analysis of the deposited data

Results flagged for a closer look

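Of 26 sets of 4 libraries (a gene in a group) in which a single library could be tested against the others, 5 held a library far from the rest. By chance about 1 in 20 sets would. Abcb1b had 13.4 CPM in vehicle CKO replicate 1, where the other 3 libraries had at most 1.02 CPM. Abcg2 had 50.9 CPM in the same library, where the others had 21.5 to 25.2 CPM. Abcc4 had 73.9 CPM in PTX CKO replicate 4, where the others had 41.7 to 41.9 CPM. Abcc2 had 3.30 CPM (32 counts) in PTX CKO replicate 3 and 0.208 CPM (2 counts) in vehicle CKO replicate 4, where the other libraries of each group were at 0. With 3 libraries at 0 any count in the other stands apart by construction, and 2 counts are fewer than the 3 that a count of 0 allows, so these 2 sets say nothing about outliers.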

How the results depend on the processing

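With edgeR 366 genes were called for PTX against vehicle in CKO, 704 in fl/fl, 0 for CKO against fl/fl under PTX, 3 under vehicle and 1 for the interaction. In that order, as far as each moved by over 1.5 times, the counts were 1341, 1517, 10, 83 and 50 with DESeq2, and 1798, 1500, then 1 under vehicle and 0 for the interaction with the title date term. They were 0 in CKO, 4 in fl/fl and 0 for the interaction without the earlier PTX date, 47 in fl/fl and 0 for the interaction without the earlier vehicle date, 159 in CKO and 0 under vehicle with only the groups compared, and 0 for the interaction with RLE scaling. The replicate block gave 126 in CKO, 361 in fl/fl, 0 under PTX, 1 under vehicle and 0 for the interaction. It changed no call of the 7 genes, but ended those of Abca1 in both genotypes (adjusted p 0.0836 in CKO and 0.0529 in fl/fl) and of Abca7 in fl/fl (0.0735). Leaving out 1 library gave 30 to 549 in CKO, 177 to 845 in fl/fl, 1 to 15 under vehicle and 0 to 4 for the interaction. Settings with fewer libraries also have less power. A minimum of 30 counts for the Abcb1a share left too few libraries to compare, and leaving out 1 library gave -62.9 to -35.6 percentage points in CKO and -39.6 to -22.6 in fl/fl.

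Of the alternative values of the 7 genes 486 kept direction and side of the threshold, 1 newly passed (Abcb1a in CKO with DESeq2) and 45 changed sign, none of them called. Under vehicle the log2 fold change of CKO against fl/fl for Abcc4 turned to 0.0366 with RLE scaling, 0.0670 with the block, 0.381 with the date term, 1.53 without the earlier vehicle date and 0.0370 with DESeq2, that of Abcb1a to 0.464 with the block and that of Abcc1 to 0.306 without the earlier vehicle date. The interaction turned to -0.0157 (block), -0.275 (date term) and -1.36 (without the earlier vehicle date) for Abcc4 and to 0.822 for Abcg2 without the earlier vehicle date. For PTX against vehicle in fl/fl Abcc1 turned to 0.0414 with the date term and 0.429 without the earlier vehicle date, Abcb1b to 0.169 without those libraries, and in CKO Abca7 to -0.0221 without them. Leaving out 1 library gave ranges across 0, for Abcb1b -2.84 to 0.309 (PTX in CKO), -0.490 to 0.557 (PTX in fl/fl), -0.449 to 0.830 (genotype under PTX) and -2.76 to 0.388 (interaction), for Abcc1 -0.476 to 0.349 (PTX in fl/fl), for Abcc4 -0.130 to 0.305 (genotype under PTX), -0.349 to 0.364 (under vehicle) and -0.242 to 0.472 (interaction), for Abcg2 -0.431 to 0.251 (interaction), for Abcb1a -0.641 to 0.350 and Abcc5 -0.217 to 0.0908 (under vehicle) and for Abca7 -0.0449 to 0.302 (PTX in CKO). The cause was not tested. Over the 16 libraries Abcb1a, Abcb1b and Abcc2 had the fewest counts of the 7, with 631, 244 and 34.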
